A study of Mus musculus with 30 samples.

Results

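Ribosome biogenesis factors are the nucleolar proteins that transcribe, modify, cut and assemble ribosomal RNA. RNA polymerase I copies the ribosomal DNA into a long precursor. Guide-RNA particles of the box C/D and box H/ACA classes methylate it and convert uridines to pseudouridine. Processing factors then release the small and large subunits, and in preimplantation mouse embryos nucleoli mature as the embryo's own ribosomal RNA synthesis begins. The genes followed here were chosen by name, with earlier results of these data known. They were 6 of RNA polymerase I and its initiation factors, 3 box C/D core proteins and 4 box H/ACA core proteins. With 5 nucleolar proteins with several tasks, 10 small-subunit factors and 9 large-subunit factors, the set came to 37 genes. Of these, 35 had a transcript cluster (the array's probe set for one transcribed region) carrying their symbol alone, out of 30141 genes measured that way. All 35 passed the filter on mean level that left 18091 genes for testing. Nop56, a box C/D core protein, and Gnl3, the nucleolar GTPase nucleostemin, lay only on clusters shared with a small nucleolar RNA gene and were not used.

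RNA came from 30 single blastocysts of B6C3F1 x CD1 matings, 1 per array, all from a cycle stimulated with the hormones PMSG and hCG, taken on day 4 post coitum when they had been cultured for 96 h. All had reached the 2-cell stage in KSOM(aa), the standard amino-acid-supplemented medium for mouse embryos. In 10 embryos the sister blastomeres were then parted, and each pair gave 1 twin grown alone in GM501 and 1 grown alone in SAGE 1-Step, both media of human assisted reproduction. The other 10 embryos were controls, left whole and grown singly in KSOM(aa). Twins held about 40 to 50 cells and controls about 80, so wherever twins are set against controls, medium, bisection and cell number cannot be told apart. In whole blastocysts, fewer cells of a type and less RNA per cell cannot be told apart either. Signals are log2 values, so a difference of 1 is a doubling.

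The pairs are read in sets, pairs 1 to 6 and pairs 7 to 10. This split was known from earlier results on these data, the array medians, and not from the labels. The median over all clusters lay between 4.81 and 5.28 on the 12 twin arrays of pairs 1 to 6, between 4.57 and 5.12 on the 8 twin arrays of pairs 7 to 10, and between 4.59 and 4.69 on the 10 control arrays. In the later set, the highest median, 5.12, was that of the SAGE twin of pair 8, which lay inside the range of pairs 1 to 6. No label says how the sets differ, so results for the factors are given over all pairs and, for many of them, also by set. Among single blastocyst markers, Nanog averaged 12.70 in twin pairs and 13.99 in controls (n = 10 each). Cdx2 averaged 11.19 in twin pairs and 11.78 in controls. The mean of 6 epiblast or inner cell mass markers was lower than Nanog alone, at 7.58 to 8.48 in controls.

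No factor passed the test between the media. Between GM501 and SAGE co-twins, 0 of 35 factors were called, against a background of 0.0% of all 18091 genes (limma with Benjamini-Hochberg adjustment, two-sided, call at an adjusted p under 0.05). At an unadjusted p under 0.05, 2 factors passed, Polr1a and Nob1, against 3.85% of all genes. Against the controls, 15 factors fell and 1 rose in the twin pairs, where 11.4% of all genes tested fell and 14.2% rose, 25.6% in all. Among the 9594 genes whose mean signal lay in the range of the factors, 18.5% fell and 8.62% rose. The factors were chosen with earlier results of these data known, so these shares give no independent test of the set. The members that fell came from RNA polymerase I, box C/D, the nucleolar proteins and both subunits. They included Rrp9, Pes1, Nop2, Ubtf and Fbl. Of the 16, 7 were called in each of the 20 fits that left out 1 pair or 1 control: Ubtf, Fbl, Rrp9, Heatr1, Nop2, Pes1 and Ftsj3. The other 9 lost the call in at least 1 of those fits, with adjusted p-values of up to 0.0934. With all 30 arrays and the embryo as a random block (estimated correlation 0.373), 12 were called. The share of all genes called in that fit is not given. The call was lost there for Rrn3 (adjusted p = 0.162), Nop58 (0.0997), Bysl (0.0877) and Nop14 (0.0685). With pairs 7 to 10 alone, 0 of 35 factors were called, where 0.73% of all genes were, so that count says nothing particular to the factors.

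Promoter letters are shown for the members that carry the core motif of MYC and of other E-box factors, which is often described in ribosome biogenesis genes. Not all of these members were called. Windows of 300 bases, 250 before and 50 after the start, were taken from RefSeq on GRCm38.p6, and 33 of the 37 genes had at least 1. CACGTG, which reads the same on both strands, was in a window of 7 of the 33 genes (21.2%), against 8.09% of 27025 genes with a window. The ETS-type motif CCGGAAG, on either strand, was in 8 (24.2%, against 9.93%). The GC box GGGCGGG, on either strand, was in 15 (45.5%, against 27.9%). The ZBTB33 (Kaiso) motif was in 0 of 33, against 0.525% of all genes. None of these motifs contains another, and a match describes letters and no binding. The 7 genes with CACGTG were Rrn3, Mybbp1a, Wdr43, Ltv1, Utp20, Nop2 and Pes1. The 4 that the naming rule also picked are printed, with CACGTG in capitals, to show where the motif lies. Pes1, Mybbp1a and Utp20 fell in twin pairs, and Wdr43 averaged 12.45 in twin pairs and 12.39 in controls.
Pes1, chr11:3963725-3964024, plus strand: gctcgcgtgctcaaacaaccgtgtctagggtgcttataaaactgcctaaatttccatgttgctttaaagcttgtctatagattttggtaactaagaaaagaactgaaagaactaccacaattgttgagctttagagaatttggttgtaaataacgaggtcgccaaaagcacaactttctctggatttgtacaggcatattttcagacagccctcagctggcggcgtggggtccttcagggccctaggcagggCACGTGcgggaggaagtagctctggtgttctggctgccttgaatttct
Mybbp1a, chr11:72441077-72441376, plus strand: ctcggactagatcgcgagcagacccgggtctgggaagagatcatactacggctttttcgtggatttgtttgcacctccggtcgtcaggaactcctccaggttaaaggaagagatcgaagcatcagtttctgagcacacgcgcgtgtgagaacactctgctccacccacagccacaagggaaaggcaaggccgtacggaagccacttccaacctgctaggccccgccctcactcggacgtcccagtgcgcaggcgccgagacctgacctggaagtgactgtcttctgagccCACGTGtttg
Utp20, chr10:88826765-88827064, minus strand: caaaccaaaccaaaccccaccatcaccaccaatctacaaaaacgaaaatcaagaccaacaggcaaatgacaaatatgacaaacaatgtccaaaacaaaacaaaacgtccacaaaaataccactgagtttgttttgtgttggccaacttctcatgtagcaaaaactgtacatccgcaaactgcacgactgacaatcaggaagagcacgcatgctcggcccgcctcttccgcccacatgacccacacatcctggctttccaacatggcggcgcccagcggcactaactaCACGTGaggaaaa
Wdr43, chr17:71615965-71616264, plus strand: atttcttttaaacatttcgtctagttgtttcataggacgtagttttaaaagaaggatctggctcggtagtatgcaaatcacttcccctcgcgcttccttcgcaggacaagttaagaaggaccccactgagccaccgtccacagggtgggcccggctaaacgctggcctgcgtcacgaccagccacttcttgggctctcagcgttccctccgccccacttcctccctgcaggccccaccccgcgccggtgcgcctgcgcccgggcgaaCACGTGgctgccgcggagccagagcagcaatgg
In these 4 windows the motif began 2, 40, 37 and 17 bases after the start, in the order printed.

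Of the 6 genes of RNA polymerase I, Ubtf and Rrn3 fell in twin pairs and 0 rose, against 11.4% lower and 14.2% higher over all genes. Ubtf, the factor that keeps ribosomal DNA open and recruits the polymerase, ranged from 8.91 to 10.24 in GM501 twins (median 9.49), from 8.87 to 10.22 in SAGE twins (median 9.28) and from 9.75 to 10.94 in controls (median 10.41). Every pair mean lay below the control median, although the groups overlapped. Ubtf averaged 9.19 in twins of pairs 1 to 6 and 10.03 in twins of pairs 7 to 10, against 10.32 in controls. The difference between pair means and controls was -0.80 ± 0.18 (SE; adjusted p = 0.00829, limma, n = 10 each). Rrn3, the initiation factor that carries growth signals to the polymerase, spread widely in GM501 twins, from 8.63 to 12.49 (median 12.09), against 10.09 to 12.31 (median 11.67) in SAGE twins and 11.75 to 12.49 (median 12.05) in controls. Its pair means lay 0.69 below the controls by difference (-0.69 ± 0.221, adjusted p = 0.0319, and adjusted p = 0.162 with the embryo as a random block). Within the controls' range lay 6 of the 10 GM501 twins, and the lowest belonged to pairs 1 to 6.

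Polr1a, the largest catalytic subunit, ranged from 6.52 to 8.64 in GM501 twins (median 6.93), from 5.96 to 8.39 in SAGE twins (median 6.44) and from 7.64 to 8.35 in controls (median 7.94). All 12 twins of pairs 1 to 6 lay between 5.96 and 6.94, below every control, while the 8 twins of pairs 7 to 10 lay between 7.13 and 8.64. In the comparison of pair means the difference was -0.76 ± 0.281, with an adjusted p of 0.0509. For SAGE twins alone it was -1.03 ± 0.297 and was called (adjusted p = 0.0295), and for GM501 twins alone it was -0.50 ± 0.278 (adjusted p = 0.187). Polr1d, a small subunit shared with RNA polymerase III, averaged 8.71 in twin pairs and 8.68 in controls, a difference of 0.02 with a 95% interval from -0.23 to 0.27. Polr1b and Polr1c, the other polymerase subunits among the members, differed by -0.45 and -0.32 and were not called.

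Both measured core proteins of the box C/D particle, which guides ribose methylation, fell in twin pairs, where 11.4% of all genes fell. Fbl, fibrillarin, the methyltransferase itself, ranged from 11.43 to 14 in GM501 twins (median 12.84), from 12.44 to 13.64 in SAGE twins (median 12.77) and from 13.17 to 13.80 in controls (median 13.57). Only 1 pair mean exceeded the control median. The difference was -0.66 ± 0.16 for pair means (adjusted p = 0.011, limma) and -0.68 ± 0.133 for SAGE twins (adjusted p = 0.00775). For GM501 twins it was -0.64 ± 0.219, with an adjusted p of 0.0525. Fbl averaged 12.63 in twins of pairs 1 to 6 and 13.24 in twins of pairs 7 to 10, against 13.54 in controls. Nop58, a scaffold of the same particle, ranged from 13.69 to 15.15 in GM501 twins (median 14.54), from 13.41 to 15.12 in SAGE twins (median 14.78) and from 14.74 to 15.19 in controls (median 14.98). The groups overlapped at their upper ends, and the spread below was in the twins. By set, Nop58 averaged 14.29 in twins of pairs 1 to 6 and 14.84 in twins of pairs 7 to 10, against 14.97 in controls. Its pair means fell by 0.46 (-0.46 ± 0.142, adjusted p = 0.0269, and adjusted p = 0.0997 with the embryo as a random block).

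The 4 core genes of the box H/ACA particle, which guides pseudouridylation and is also part of telomerase, had a median difference of 0.15, which turned to -0.04 with each array centred on its median. All 35 factors had a median of -0.45 and all genes tested 0.11. Nop10, its smallest protein, ranged from 9.38 to 11.50 in GM501 twins (median 11.01), from 9.06 to 11.69 in SAGE twins (median 10.55) and from 8.79 to 10.55 in controls (median 9.71). Its twins fell into separate bands. Pairs 1 to 6 lay between 10.45 and 11.69, while pairs 7 to 10 lay between 9.06 and 10.09, within the controls' range. Nop10 rose in the pair means by 0.78 ± 0.282 (adjusted p = 0.0477), but with each array centred on its median the difference was 0.59 (adjusted p = 0.0979) and with quantile normalization the adjusted p was 0.0503. Nhp2, which binds the guide RNA, averaged 12.43 in twin pairs and 12.29 in controls (difference 0.13, interval -0.19 to 0.46). Gar1, which helps release the modified RNA, averaged 9.01 in twin pairs and 9.09 in controls (difference -0.08, interval -0.24 to 0.09). Dkc1, the pseudouridine synthase, differed by 0.16 ± 0.177. With centred arrays 1 of the 4 genes was called lower.

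Of the 5 nucleolar proteins with several tasks, Mybbp1a fell and 0 rose, against 11.4% lower and 14.2% higher over all genes. Mybbp1a, a nucleolar MYB-binding protein that also tunes ribosomal RNA synthesis, ranged from 7.97 to 11.23 in GM501 twins (median 8.76), from 7.76 to 10.83 in SAGE twins (median 9.07) and from 9.37 to 10.90 in controls (median 10.46). Its pair means lay at -1.10 ± 0.346 from the controls (adjusted p = 0.0292, limma). By set, Mybbp1a averaged 8.54 in twins of pairs 1 to 6 and 10.5 in twins of pairs 7 to 10, against 10.43 in controls. Npm1, the nucleophosmin that chaperones histones and ribosome precursors, ranged from 16.97 to 17.63 over all twins. It averaged 17.36 in twin pairs and 17.42 in controls (difference -0.05, interval -0.19 to 0.09). Ncl, Nolc1 and Ddx21, in turn nucleolin, a snoRNP chaperone and an RNA helicase, differed by -0.31, -0.62 and -0.38 and were not called.

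Of the 10 small-subunit genes, 5 fell in twin pairs and 0 rose, against 11.4% lower and 14.2% higher over all genes. Those that fell were Nop14, Rrp9, Bysl, Heatr1 and Utp20. Rrp9, the protein of the U3 particle that starts processing of the precursor, ranged from 7.17 to 9.46 in GM501 twins (median 7.53), from 7.55 to 8.40 in SAGE twins (median 7.75) and from 8.44 to 9.17 in controls (median 8.91). All 10 SAGE twins lay below every control, which held for 0.111% of all genes tested. Rrp9 averaged 7.55 in twins of pairs 1 to 6 and 8.45 in twins of pairs 7 to 10, against 8.84 in controls. Its difference was -0.94 ± 0.17 for pair means (adjusted p = 0.00315, limma), -0.95 ± 0.128 for SAGE twins (adjusted p = 0.00175) and -0.92 ± 0.238 for GM501 twins (adjusted p = 0.0212). Utp20, a scaffold of the early small-subunit precursor, ranged from 7.52 to 10.09 in GM501 twins (median 8.21), from 6.33 to 10.03 in SAGE twins (median 7.95) and from 8.74 to 9.52 in controls (median 9.19), with some twins on either side of the controls. Its pair means lay at -0.84 ± 0.30 from them (adjusted p = 0.0454). By set, Utp20 averaged 7.65 in twins of pairs 1 to 6 and 9.34 in twins of pairs 7 to 10, against 9.17 in controls.

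The small-subunit members Rrp12, Wdr43, Nob1, Wdr75 and Ltv1 did not pass. Rrp12, needed for nuclear export of the precursor, ranged from 5.81 to 7.90 in GM501 twins (median 6.32), from 5.86 to 7.62 in SAGE twins (median 6.00) and from 6.58 to 7.71 in controls (median 7.04). The 12 twins of pairs 1 to 6 ended at 6.36, below every control, but over all pairs the difference was -0.56 ± 0.241 (adjusted p = 0.0796). Wdr43, an early assembly factor, differed by 0.05 with an interval from -0.21 to 0.32. Nob1, the nuclease that makes the last cut of small-subunit RNA, averaged 7.88 in twin pairs and 7.93 in controls (difference -0.05, interval -0.27 to 0.18). Wdr75 and Ltv1 differed by -0.28 and -0.10. Bysl and Heatr1, a late and an early assembly factor, fell by 1.12 and 1.15 and were called (adjusted p = 0.0374 and 0.0221, limma). By set, Bysl averaged 6.53 in twins of pairs 1 to 6 and 8.58 in twins of pairs 7 to 10, against 8.47 in controls. For Heatr1 these means were 8.06, 9.79 and 9.9.

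Of the 8 large-subunit genes measured, 5 fell in twin pairs and 0 rose, against 11.4% lower and 14.2% higher over all genes. Those that fell were Nop2, Rrp1b, Bop1, Pes1 and Ftsj3. Pes1, pescadillo, works in one complex with Bop1 and Wdr12. It ranged from 11.06 to 13.74 in GM501 twins (median 12.05), from 11.44 to 13.57 in SAGE twins (median 12) and from 12.93 to 13.83 in controls (median 13.48). Its difference was -1.07 ± 0.266 for pair means (adjusted p = 0.0123, limma), -1.19 ± 0.254 for SAGE twins (adjusted p = 0.00956) and -0.95 ± 0.31 for GM501 twins (adjusted p = 0.0473). Bop1 ranged from 7.24 to 11.90 in GM501 twins (median 8.33), from 7.32 to 11.22 in SAGE twins (median 8.59) and from 9.66 to 10.75 in controls (median 10.33), and its pair means lay at -1.22 ± 0.427 from the controls (adjusted p = 0.043). By set, Bop1 averaged 8.05 in twins of pairs 1 to 6 and 10.56 in twins of pairs 7 to 10, against 10.27 in controls. For Pes1 these means were 11.76, 13.3 and 13.45. Wdr12, the third member of the complex, averaged 10.30 in twin pairs and 10.27 in controls (difference 0.03, interval -0.30 to 0.36).

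Nop2, the RNA methyltransferase p120, had the lowest difference of all 35 members, at -1.27 ± 0.344 (adjusted p = 0.0174), and ranged from 7.68 to 11.60 in GM501 twins, from 7.58 to 11.34 in SAGE twins and from 10.12 to 11.15 in controls. By set, Nop2 averaged 8.71 in twins of pairs 1 to 6 and 10.56 in twins of pairs 7 to 10, against 10.72 in controls. Ftsj3, another methyltransferase of the large-subunit path, fell by 0.96 and Rrp1b fell by 0.47. For Ftsj3 the means by set were 8.17 and 9.61, against 9.71 in controls. Nop16 averaged 11.45 in both, with a difference of 0.00 and an interval from -0.35 to 0.35. Ddx18, a helicase, differed by 0.09 and was not called.

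**Figure D1:**
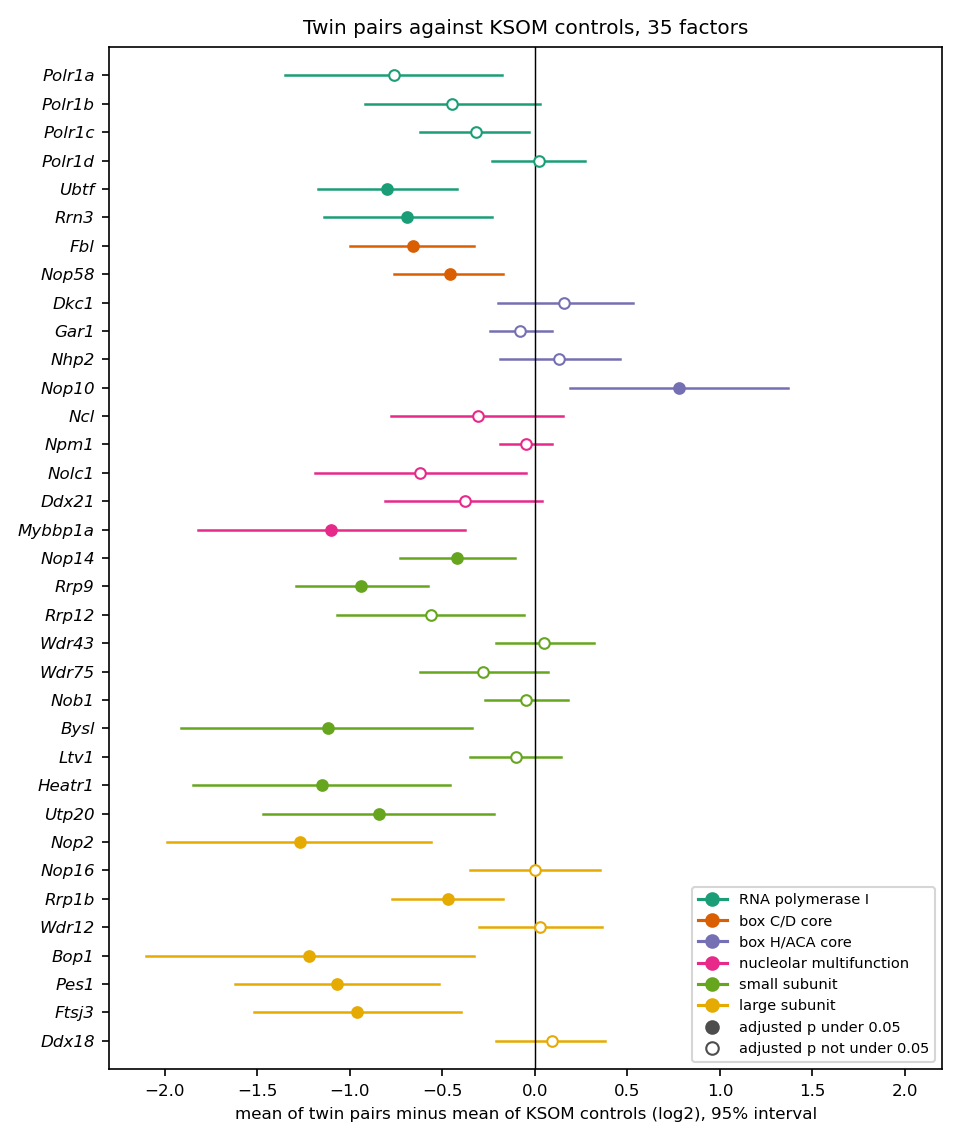
Mean of 10 twin pairs minus mean of 10 KSOM controls for the 35 measured factors, in log2 units on the horizontal axis, with 95% intervals from limma; colours give the role and filled points an adjusted p under 0.05. Filled points on the left run from Nop2 at -1.27 to Nop14 at -0.42, and Nop10 at 0.78 is the only filled point on the right.

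Set against each medium alone, the counts differed, though the controls are shared and the difference between the counts was not tested. GM501 twins had 3 factors that fell and 0 that rose, against 6.97% of all genes lower, 6.8% higher and 13.8% called in all. The 3 were Ubtf, Rrp9 and Pes1. SAGE twins had 11 that fell and 0 that rose, against 8.63% of all genes lower, 7.5% higher and 16.1% in all. The 11 were Polr1a, Ubtf, Fbl, Mybbp1a, Rrp9, Bysl, Heatr1, Nop2, Bop1, Pes1 and Ftsj3. The median difference of the 35 factors was -0.41 in GM501 twins and -0.43 in SAGE twins, where the median over all genes was 0.11 in each. Over the 9594 genes whose mean signal lay in the range of the factors, from 6.69 to 17.38, the median in pair means was -0.04, 18.5% fell and 8.62% rose.

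**Figure D2:**
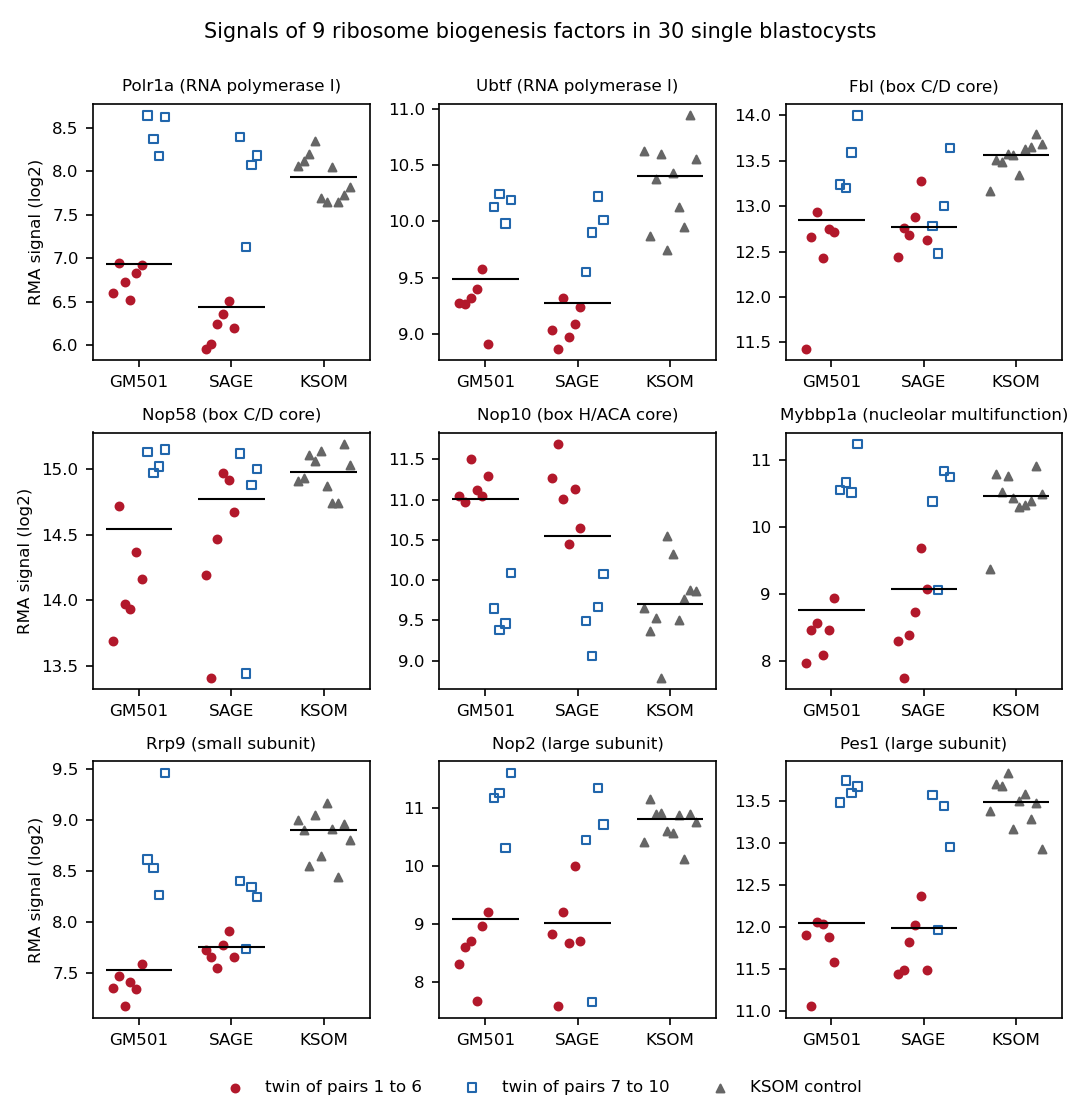
RMA signal (log2) of 9 factors on each of 30 arrays, by group: GM501 twins, SAGE twins and KSOM controls, 10 each, with a line at each group's median. Filled circles are twins of pairs 1 to 6 and open squares twins of pairs 7 to 10; for Polr1a the circles lie between 5.96 and 6.94 and the controls (triangles) between 7.64 and 8.35.

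The comparison with controls was also made by set. The split was known from earlier results on these data, so counts by set give no independent test. With pairs 1 to 6 alone against the controls, pair means had 21 factors that fell and 2 that rose, where 22.0% of all genes fell and 42.1% rose. All 12 twins of these pairs lay below every control for 10 factors, against 5.55% of all genes: Polr1a, Ubtf, Rrp9, Rrp12, Heatr1, Utp20, Nop2, Bop1, Pes1 and Ftsj3. No factor had all 12 twins above every control, against 7.22% of all genes. With pairs 7 to 10 alone, 0 factors were called, against 0.73% of all genes, and 4 passed at an unadjusted p under 0.05, against 13.1%. The factors' median was then -0.11, and 0.08 without pair 8. The difference between the sets was not tested. With all pairs and each array centred on its median, 18 factors were lower and 0 higher, with a median of -0.63, where the median of all genes was -0.07 and 16.9% of them were lower and 3.86% higher.

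The levels of the roles by set overlapped the controls to different extents. The mean of the 10 small-subunit genes about their own means ranged from -1.03 to -0.14 on the 12 twin arrays of pairs 1 to 6, from -0.92 to 0.75 on the 8 of pairs 7 to 10 and from 0.12 to 0.61 on the controls. For RNA polymerase I it was -1.05 to -0.14 in pairs 1 to 6, -0.61 to 0.76 in pairs 7 to 10 and 0.08 to 0.53 in controls. For the large subunit it was -1.18 to 0.07 in pairs 1 to 6, -1.05 to 1.03 in pairs 7 to 10 and 0.01 to 0.66 in controls. For the box C/D core it was -1.32 to 0.22 in pairs 1 to 6, -0.92 to 0.69 in pairs 7 to 10 and 0.16 to 0.61 in controls. For the nucleolar proteins with several tasks it was -1.54 to 0.10 in pairs 1 to 6, -1.20 to 0.97 in pairs 7 to 10 and -0.21 to 0.50 in controls. Pairs 1 to 6 thus lay below every control for the small subunit and RNA polymerase I, and overlapped the controls in the other 3. The lowest value in pairs 7 to 10 belonged to the SAGE twin of pair 8 in each of these roles. Without it, the SAGE twins of pairs 7, 9 and 10 lay between 0.29 and 0.53 for the small subunit. On this scale the box H/ACA core ranged from -0.01 to 0.58 in pairs 1 to 6, against -0.46 to 0.06 in controls, while the SAGE twin of pair 8 had -1.07.

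**Figure D3:**
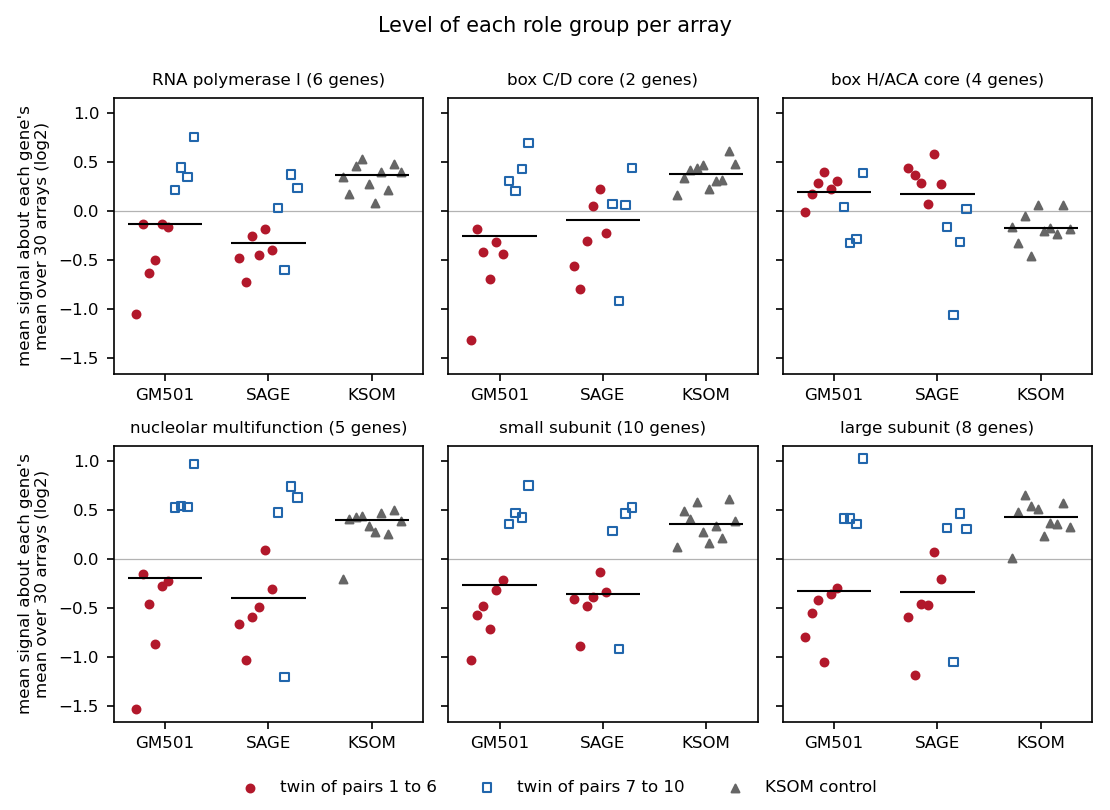
Mean log2 signal of each role's genes about each gene's mean over 30 arrays, 1 point per array, for GM501 twins, SAGE twins and KSOM controls with a line at the group median. Twins of pairs 1 to 6 (circles) lie between -1.03 and -0.14 for the small subunit, below the controls at 0.12 to 0.61, and the low open square among SAGE twins is pair 8.

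Markers of the cell lineages were averaged by set, with no test. The mean signal of 8 trophectoderm markers ranged from 10.62 to 11.46 in twins of pairs 1 to 6, from 11.36 to 12.05 in twins of pairs 7 to 10 and from 11.91 to 12.25 in controls. For 4 primitive endoderm markers it was 7.13 to 8.14 in pairs 1 to 6, 7.21 to 8.96 in pairs 7 to 10 and 7.95 to 9.38 in controls. For 6 markers of the epiblast or inner cell mass it was 6.86 to 7.76 in pairs 1 to 6, 6.65 to 8.76 in pairs 7 to 10 and 7.58 to 8.48 in controls, so that the first set lay inside the range of the second. For 6 residual oocyte transcripts it was 5.19 to 5.55 in pairs 1 to 6, 4.65 to 5.33 in pairs 7 to 10 and 4.77 to 5.21 in controls. Among single markers, Cdx2 fell by 0.59 in twin pairs, Nanog by 1.29 and Pou5f1 by 0.92, whereas Gata6 differed by -0.26 and was not called. The 2 tested markers of cumulus or oviduct cells averaged 5.02 to 6.31 in GM501 twins, 5.17 to 6.17 in SAGE twins and 5.17 to 5.96 in controls, and the 2 of blood and immune cells 4.89 to 5.37 in GM501, 4.82 to 5.38 in SAGE and 4.70 to 4.94 in controls. The part of these markers in the result was not tested.

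Within pairs, where sister blastomeres of one embryo are compared, the median difference (GM501 minus SAGE) of the 35 factors was 0.10, and 30 of them lay above 0, where 52.2% of all genes did. This shift rested on 1 pair. The median was 1.24 in pair 8, where 33 factors and 46.6% of all genes were higher in the GM501 twin, and without that pair it was -0.04 over the rest. In pairs 1 to 6 the median was -0.14 with 10 factors above 0, against 48.4% of all genes. In pairs 7 to 10 it was 0.46 with 33 above 0, against 54.2%. Without pair 8, pairs 7, 9 and 10 had a median of 0.17 with 27 above 0, against 59.5%. Pair by pair it ran from -0.42 in pair 1 to 1.24 in pair 8, with 0.44 in pair 10. The change of the medium difference between the sets, tested directly, gave 0 of 35 factors called, against 0.0% of all genes, and 8 at an unadjusted p under 0.05, against 7.87%.

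Polr1a was higher in the GM501 twin in 10 of 10 pairs, by 0.10 to 1.24, a mean of 0.53 ± 0.12 (SE) with an unadjusted p of 0.000836 and an adjusted p of 0.796. It was 0.54 in pairs 1 to 6 and 0.51 in pairs 7 to 10. A gene with 9 or 10 pairs on 1 side was 1 of the 35 factors, against 1.66% of all genes. Nob1 went the other way and was higher in the GM501 twin in 2 of 10 pairs (-0.35 ± 0.161, unadjusted p = 0.0498, adjusted p = 1.0). Nop16 followed at 0.41 ± 0.192, with 7 of 10 pairs positive. The box C/D core differed by 0.04 for Fbl, with an interval from -0.32 to 0.40, and by 0.00 for Nop58, with an interval from -0.51 to 0.52.

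**Figure D4:**
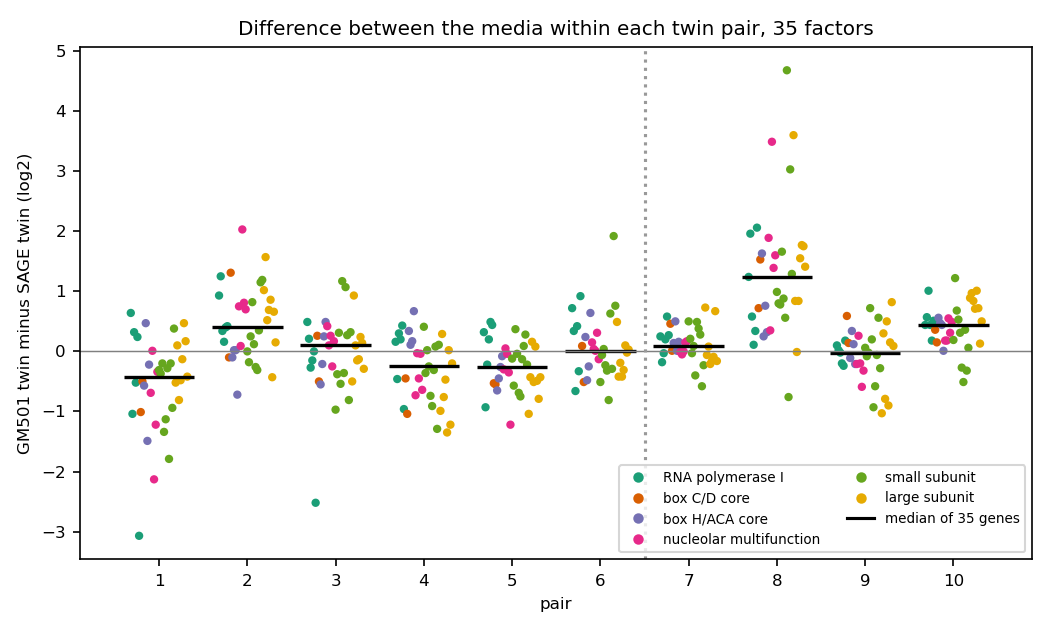
GM501 twin minus SAGE twin (log2) for 35 factors in each of 10 pairs, coloured by role, with a line at each pair's median. The medians run from -0.42 in pair 1 to 1.24 in pair 8; the dotted line parts pairs 1 to 6 from pairs 7 to 10.

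Over all 10 pairs the twins varied more than the controls, as most genes did. The SD over arrays was larger in GM501 twins than in controls for 35 of 35 factors and in SAGE twins likewise, where 87.1% and 87.6% of all genes had the larger SD in twins. Over the factors the SD had a median of 0.70 for GM501, 0.66 for SAGE and 0.27 for the controls. Within pairs 1 to 6 that median was 0.39 for GM501 and 0.43 for SAGE, and within pairs 7 to 10 it was 0.35 for GM501 and 0.58 for SAGE, or 0.27 for SAGE without pair 8. The SD was then larger than in controls for 26 factors in GM501 twins of pairs 1 to 6 (71.0% of all genes) and for 25 in their SAGE twins (68.9%). In pairs 7 to 10 it was larger for 22 in GM501 twins (59.9%) and for 31 in SAGE twins (74.0%). In SAGE twins of pairs 7, 9 and 10 it was larger for 12, against 50.2% of all genes. Over all pairs Bysl and Bop1 spread widely, with an SD of 1.54 and 1.55 for GM501 and 1.34 and 1.36 for SAGE. The controls had 0.55 and 0.40. Within pairs 1 to 6 these SDs were 0.78 and 0.50 for GM501 and 0.51 and 0.56 for SAGE. Within pairs 7 to 10 they were 0.78 and 0.78 for GM501 and 1.78 and 0.98 for SAGE. Without pair 8 the SAGE values were 0.69 and 0.41. Npm1 had the narrowest SD over all pairs in GM501 twins and in SAGE twins, at 0.11 and 0.15, against 0.10 in controls.

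Embryo of origin was tested as well. Among the 20 twin arrays, embryo of origin was a called factor for 9 of 35 genes, against 26.4% of all genes, so the share was near the background. The smallest p-values belonged to Polr1a (adjusted p = 0.000478, limma F test), Rrp12 (0.00134), Nop10 (0.00186), Utp20 (0.00215) and Bop1 (0.00251). For Polr1a, the 12 twins of pairs 1 to 6 and the 8 of pairs 7 to 10 did not overlap, as given above. Within pairs 1 to 6, 0 of 35 were called, against 0.243% of all genes, and within pairs 7 to 10, 0 of 35, against 0.0663%.

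Other genes of the pathway came from lists chosen by name, also with earlier results of these data known. They were read against the same background of 11.4% lower and 14.2% higher. Of 43 other small-subunit factors, 13 fell and 0 rose in twin pairs, with a median of -0.36. Nol6, a processome subunit, fell to 7.64, against 9.02 in controls. Nop9 and Rrp7a fell by 0.60 and 0.96. Of 42 other large-subunit factors, 12 fell and 1 rose, with a median of -0.28. Eif6, which keeps the large subunit from joining too early, fell to 11.24, against 11.99 in controls. Nop53 and Senp3, a recruiter of the exosome and a SUMO protease, each fell by 0.81.

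Of 12 other genes of RNA polymerase I and its factors, 1 fell and 0 rose. It was Ttf1, the terminator of ribosomal DNA transcription, at 8.08 in twin pairs and 8.58 in controls. Of 7 other genes of snoRNP structure and assembly, 2 fell and 0 rose. Ruvbl2 and Pih1d1, assembly cofactors of the R2TP complex, fell by 0.60 and 0.64. Of 13 genes of the RNA exosome, the nuclease that trims ribosomal RNA precursors, 2 rose and 0 fell, where centred arrays gave 1 higher and 2 lower. C1d rose to 7.89, against 7.21 in controls, and Exosc3 rose to 11.94, against 11.10 in controls. Of 9 MYC regulators, 0 were called, and Mycn had the smallest p-value at 6.78 in twin pairs and 7.02 in controls (adjusted p = 0.0687). Of 34 cytosolic ribosomal protein genes with a cluster of their own, out of 79, 2 fell and 1 rose, with a median of 0.05, which turned to -0.14 with centred arrays. Rpsa fell by 0.40 and Rplp0 by 0.20, while Rps28 rose by 0.59.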

How the data were processed

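The deposited table held log2 signals per transcript cluster, which the authors made by RMA in Affymetrix Expression Console on mm10, per the submitters' processing notes. Versions are not given in the sources used here, and the log base was taken from the values (2.2 to 19.3). Of 65956 clusters, 30604 carried 1 gene symbol. A gene's cluster with the highest mean was used, and the upper 60% of 30141 genes by mean (at least 4.8) left 18091. Groups came from the labels. Differences were fitted with limma 3.58.1 in R 4.3.3 (lmFit, eBayes) and adjusted over all 18091 genes by Benjamini-Hochberg. Co-twins share an embryo, so the media were compared with the pair as a block, and controls were set against single groups or pair means. Same-numbered twins correlated at 0.163 to 0.696, and 7 of 10 best with their partner. The fits were tested on simulated data. Values in full were given, per role, for the members with the smallest and the largest p against controls and the smallest p between media, for the box C/D core and for the 5 smallest p-values of embryo of origin. From each pathway list up to 3 called genes were named. Rrn3, Nop2 and further members were named after their values were seen. Members and lists were chosen with earlier results of these data known. Arrays give no counting depth, so their number limits the precision.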

Additional observations from a re-analysis of the deposited data

Results flagged for a closer look

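Within groups of 10 arrays, 6 of 105 groups had 1 array farther from its neighbour than Dixon's 95% critical value allows for 10 values, and chance gives about 1 in 20 groups. The SAGE twin of pair 8 was the lowest SAGE twin for 3 of them: Dkc1 at 10.10 (next 11.38), Npm1 at 16.97 (next 17.25) and Wdr43 at 10.88 (next 12.06). The GM501 twin of pair 10 was the highest GM501 twin for Polr1c at 12.33 (next 11.61). The GM501 twin of pair 1 was the lowest GM501 twin for Nolc1 at 8.75 (next 10.71). Control 1 was the lowest control for Mybbp1a at 9.37 (next 10.30).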

How the results depend on the processing

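Between the media, 0 factors were called with every filter, scaling, variance model and set of pairs tried, with each pair left out, and with no replicate block; the block changed no call. Without pair 8 the median difference was -0.04 (range over left-out pairs -0.04 to 0.16). GM501 twins against controls had 3 called factors, 6 with no filter on low values (19.1% of all genes), 6 in the upper 40% by mean (16.9%), 5 with centred arrays (12%), 19 with array weights (43.7%) and 23 in pairs 1 to 6 (59.4%). SAGE twins had 11, 18 with centred arrays (15.5%), 22 with array weights (49.1%) and 23 in pairs 1 to 6 (58.8%). With all 30 arrays in 1 fit they had 6 (8.72%). Pair means had 16, and 12 with the embryo as a random block. All of these had 0 in pairs 7 to 10, in pairs 7, 9 and 10, and in pairs 7 to 10 with centred arrays. The split into pairs 1 to 6 and pairs 7 to 10 was known from earlier results on these data. The last 2 settings were added after seeing the results given here. Leaving out 1 pair or 1 control gave 2 to 15 for GM501 twins (10, 13, 11 and 15 without pairs 7, 8, 9 and 10). It gave 6 to 19 for SAGE twins (6, 6, 7 and 6 without pairs 1, 2, 3 and 4, 19 without pair 9, 7 without control 9). It gave 7 to 22 for pair means (7, 9, 7 and 9 without pairs 1, 2, 3 and 4, 10 without control 3 and 10 without control 9). Shares of all genes are not given for the random block or for the fits leaving out 1 pair or 1 control. How far those counts follow all genes cannot be read from them. Embryo of origin had 9, against 0 in pairs 1 to 6 and 0 in pairs 7 to 10. The change of the medium difference between sets had 0 throughout.

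Among called factors, directions turned only in settings limited to the later pairs, and the cause was not tested. For GM501 twins Pes1 was 0.17 in pairs 7 to 10, 0.13 in pairs 7, 9 and 10 and 0.185 in pairs 7 to 10 with centred arrays. For SAGE twins, pairs 7 to 10 gave Bop1 0.107 and Polr1a 0.012, and Bop1 0.063 with centred arrays. Pairs 7, 9 and 10 gave Bop1 0.569, Bysl 0.457, Heatr1 0.228, Mybbp1a 0.224, Nop2 0.112 and Polr1a 0.282. For pair means, pairs 7 to 10 gave Bop1 0.295, Bysl 0.108, Mybbp1a 0.069, Nop10 -0.114 and Utp20 0.168. With centred arrays these were Bop1 0.28, Bysl 0.094, Mybbp1a 0.055, Nop10 -0.128 and Utp20 0.153. Pairs 7, 9 and 10 gave Bop1 0.56, Bysl 0.339, Ftsj3 0.168, Heatr1 0.171, Mybbp1a 0.281, Nop2 0.21, Nop58 0.078, Pes1 0.0, Rrn3 0.079 and Utp20 0.392. With 4 or 3 pairs, a difference has to be larger to be detected than with 10. For pair means, the factors' median was -0.114 in pairs 7 to 10 and 0.079 in pairs 7, 9 and 10. The part of the number of pairs in the missing calls was not tested.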
